A study of Mus musculus with 6 samples.

Results

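Genes that encode adipokines, the hormones and other proteins secreted by fat cells, or that mark white fat were followed in brown adipose tissue (BAT) of mice fed a high-fat diet (HFD) or a low-fat diet (LFD). They are Lep, Adipoq, Retn, Cfd, Agt, Rbp4, Nnmt, Sfrp5, Apln and Nampt, chosen by gene symbol as 10 of the 47729 genes in the files, and each symbol matched 1 row. The study compared BAT of 3 HFD-fed and 3 LFD-fed mice by RNA-Seq to ask how the diet alters its transcriptome. All were wild type C57BL/6J males, single-housed and fed from 6 to 10 weeks of age; the HFD label gives a 45% high-fat diet and the LFD label a standard rodent diet. RNA came from BAT of the right interscapular side, a bulk tissue in which fewer cells of a type and less RNA per cell cannot be told apart. The mice sequenced were chosen to span the fat mass of each diet (most, middle and least), and the labels do not say which replicate number is which.

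Adipokines carry signals from fat stores to the brain, liver, vessels and immune system. White adipocytes store triglyceride in a large droplet and secrete most leptin, adiponectin and resistin, while brown adipocytes burn fatty acids through the uncoupling protein Ucp1 and release less of these hormones. A few adipokine systems are cascades: angiotensinogen is cut by renin and then by angiotensin-converting enzyme, and factor D sets off the alternative pathway of complement.

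Of the 10 genes, 8 had lower and 2 had higher mean expression in HFD-fed mice, and 0 passed the study's thresholds in edgeR (adjusted p under 0.01 with a log2 fold change beyond 1.5 in either direction). Over all 17668 genes tested, 0% were called lower and 0% higher. The largest differences were those of Retn, Agt and Cfd, with a fold change of 11.7, 11.1 and 9.60 in favour of LFD-fed mice in edgeR. Differences of Lep, Adipoq, Rbp4, Nnmt and Sfrp5 were between 2.10-fold and 4.19-fold in the same direction. Apln was 1.73-fold and Nampt 1.26-fold higher in HFD-fed mice. The median log2 fold change (HFD over LFD) was -1.21 over the 10 genes and -0.05 over all genes tested, of which 9605 had a lower and 8063 a higher mean in HFD-fed mice. At an unadjusted p under 0.05 in edgeR, 2 genes (Agt and Cfd) were lower and 0 higher, beside 6.62% of all genes lower and 3.86% higher. DESeq2, the tool of the study's methods, called 1 of the 10 genes lower (Agt) and 0 higher, beside 1.5% and 0.523% of the genes with an adjusted p.

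The libraries held between 17156991 and 21603487 counts, so the depth was similar, but the mice of a diet differed widely from each other. The 10 genes together took 0.0939% to 0.212% of all counts in the HFD-fed and 0.162% to 0.998% in LFD-fed mice. Ucp1, the defining gene of brown fat, was detected in all 6 mice. Its level in TPM, a unit scaled for gene length and library size, was 2728, 4021 and 796.1 in HFD replicates 1, 2 and 3. The LFD replicates 1, 2 and 3 had 443.0, 11.0 and 76.0 TPM. Here and below, values of 3 mice are given in the order of their replicate numbers. Markers of skeletal muscle, the tissue that lies under this depot, also separated the diets, with 15 of 15 lower in HFD-fed mice and a summed level of 13.9 to 354.8 TPM against 2026 to 14029 TPM. Mitochondrially encoded genes took 8.50% to 22.7% of the counts in HFD-fed and 3.87% to 13.8% in LFD-fed mice. LFD replicate 3 had the lowest level among LFD-fed mice for 9 of the 10 genes (Apln was highest there).

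The genes lie on 8 chromosomes of GRCm38 and are protein-coding in the GENCODE M21 annotation. Their positions are chr6:29060220-29073877 for Lep, chr16:23146536-23158028 for Adipoq, chr8:3655770-3660110 for Retn, chr10:79890853-79892655 for Cfd and chr8:124556534-124569706 for Agt. Those of the others are chr19:38116629-38125281 for Rbp4, chr9:48591877-48605153 for Nnmt, chr19:42197971-42202252 for Sfrp5, chrX:48025146-48034853 for Apln and chr12:32819545-32853349 for Nampt. Lep, Adipoq, Retn, Cfd and Nampt are on the plus strand and the others on the minus strand. Nampt overlaps the non-coding gene Gdap10 on the same strand, so reads of the shared part could in principle be split between them. The posterior SD of its count, a score that RSEM gives, was 0 in every mouse. The other 9 genes overlap no annotated gene.

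The 250 bases before the RefSeq start (GRCm38.p6) are shown for the genes with the largest differences, Retn, Cfd and Agt, and for Lep and Adipoq, the best known hormones of white fat. Capitals mark matches to short promoter motifs (a CCAAT box on the other strand reads ATTGG), and all sequences run 5′ to 3′ on the strand of the gene. The windows are chr8:3655520-3655769 for Retn, chr10:79890603-79890852 for Cfd, chr8:124569707-124569956 for Agt, chr6:29059971-29060220 for Lep and chr16:23146286-23146535 for Adipoq.
Retn: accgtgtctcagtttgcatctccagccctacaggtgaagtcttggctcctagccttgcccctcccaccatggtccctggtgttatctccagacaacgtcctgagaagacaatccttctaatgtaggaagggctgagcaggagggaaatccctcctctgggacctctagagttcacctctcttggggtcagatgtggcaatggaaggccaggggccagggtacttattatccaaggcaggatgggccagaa
Cfd: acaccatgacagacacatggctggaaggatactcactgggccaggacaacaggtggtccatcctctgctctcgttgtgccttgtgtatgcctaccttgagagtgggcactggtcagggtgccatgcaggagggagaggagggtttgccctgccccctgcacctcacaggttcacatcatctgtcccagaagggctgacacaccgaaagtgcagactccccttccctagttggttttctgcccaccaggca
Agt: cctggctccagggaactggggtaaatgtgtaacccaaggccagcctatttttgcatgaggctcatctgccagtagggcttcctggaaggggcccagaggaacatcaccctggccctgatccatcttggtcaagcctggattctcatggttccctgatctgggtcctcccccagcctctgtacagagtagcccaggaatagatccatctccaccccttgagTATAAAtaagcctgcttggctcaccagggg
Lep: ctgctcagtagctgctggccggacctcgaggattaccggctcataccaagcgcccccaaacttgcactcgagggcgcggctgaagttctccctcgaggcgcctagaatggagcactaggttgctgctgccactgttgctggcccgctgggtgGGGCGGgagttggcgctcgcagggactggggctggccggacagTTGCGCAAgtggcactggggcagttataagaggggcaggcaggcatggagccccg
Adipoq: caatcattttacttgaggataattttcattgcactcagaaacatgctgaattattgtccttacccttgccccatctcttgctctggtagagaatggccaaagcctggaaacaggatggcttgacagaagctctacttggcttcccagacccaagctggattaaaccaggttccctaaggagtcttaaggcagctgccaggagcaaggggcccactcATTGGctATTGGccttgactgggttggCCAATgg

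For these windows, 7 motifs were searched on both strands: the TATA box TATAAA, the CCAAT box CCAAT, the GC box GGGCGG, the E-box CACGTG, the C/EBP motif TTGCNNAA, the nuclear receptor motif AGGTCA and the glucocorticoid receptor motif AGAACA. Agt had a TATA box 30 to 25 bases before its start, and 12.4% of 32851 RefSeq windows hold one. Lep had a GC box (in 32.7% of windows) 98 to 93 bases and a C/EBP motif (in 9.56%) 55 to 48 bases before its start, the latter matching on both strands at the same letters. Adipoq had 3 CCAAT boxes (in 33.8% of windows), while the Retn and Cfd windows had no match to any of the 7. Of the 9 genes with a window, TATA boxes occurred in Agt and Rbp4, CCAAT boxes in Adipoq and Rbp4, GC boxes in Lep, Rbp4, Sfrp5, Apln and Nampt, C/EBP motifs in Lep and Rbp4, and the AGGTCA motif (in 14.0% of windows) in Nampt. None of the 9 held the E-box (in 6.02%) or the AGAACA motif (in 16.1%). These are matches of letters only.

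**Figure D1:**
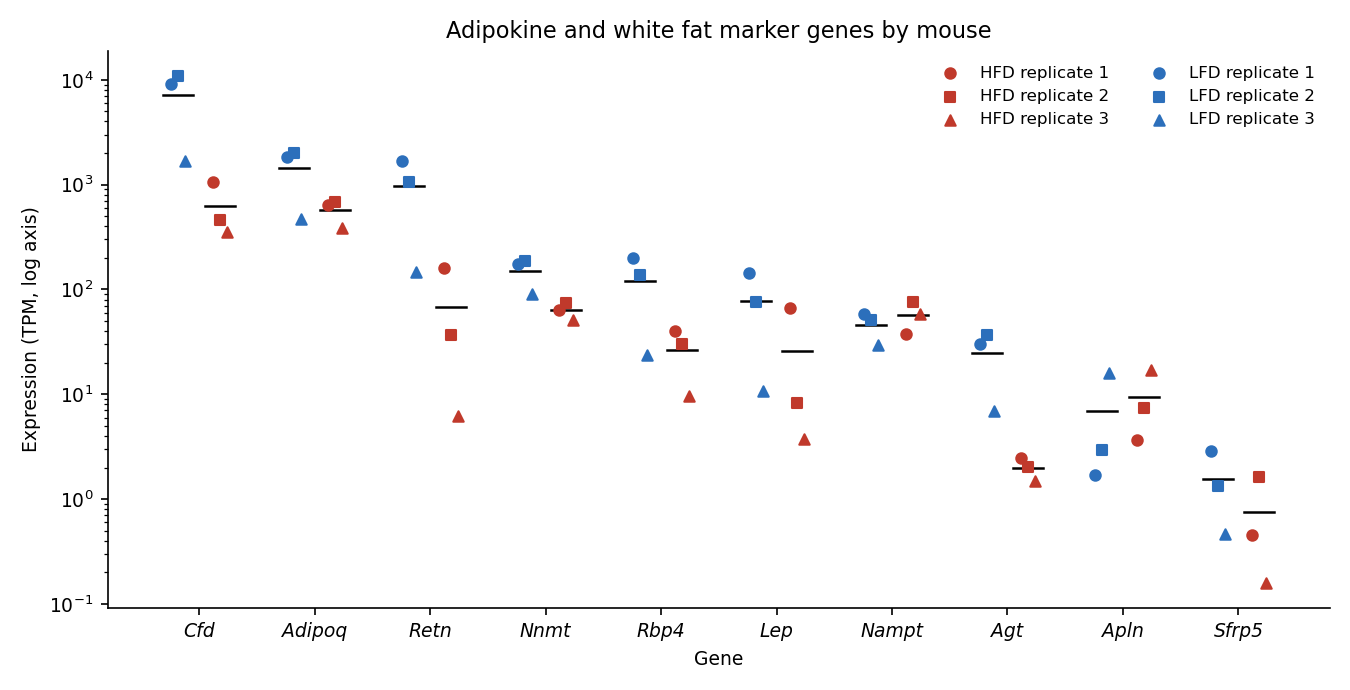
Level of each gene by mouse in TPM on a log axis, with HFD-fed mice in red, LFD-fed mice in blue, one symbol per replicate number and the mean of each diet as a black line. All 3 HFD-fed mice lie below all 3 LFD-fed mice for Cfd, Nnmt and Agt, and LFD replicate 3 is the lowest LFD-fed mouse in every column but that of Apln.

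Lep encodes leptin, the hormone that reports the size of the fat store to the hypothalamus. Its level was 65.9, 8.30 and 3.74 TPM in HFD-fed mice against 143.3, 76.4 and 10.9 TPM in LFD-fed mice. HFD replicate 1 was above LFD replicate 3, so the diets overlapped, and within a diet the mice differed by 17.6-fold (HFD) and 13.2-fold (LFD). The mean was 26.0 ± 34.7 TPM against 76.8 ± 66.2 TPM (SD, n = 3 in each diet, as for all means ± SD of TPM). Lep had a log2 fold change of -1.23 ± 1.42 (SE, adjusted p = 0.853), smaller than its own error. It was 0.05 without LFD replicate 1 and -3.85 without HFD replicate 1.

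Adipoq encodes adiponectin, a hormone of adipocytes that acts on liver and muscle through the receptors Adipor1 and Adipor2. It stood at 639.9, 688.9 and 388.4 TPM in HFD-fed and at 1823, 2015 and 469.6 TPM in LFD-fed mice, which makes it the 74th most abundant gene of the tissue by mean TPM. LFD replicates 1 and 2 were above all HFD-fed mice and LFD replicate 3 was among them. The log2 fold change was -1.19 ± 0.76 (adjusted p = 0.671), with means of 572 ± 161 and 1436 ± 842 TPM. It was -1.66 without LFD replicate 3 and -0.57 without LFD replicate 1.

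Retn encodes resistin, which in mice is secreted by adipocytes. It stood at 159.5, 36.8 and 6.18 TPM in HFD-fed mice against 1686, 1069 and 147.3 TPM in LFD-fed mice. HFD replicate 1 and LFD replicate 3 were nearly equal, so the diets overlapped, while each HFD-fed mouse was below the LFD-fed mouse of the same number. The means of 67.5 ± 81.2 and 967 ± 774 TPM differed 14.3-fold. The log2 fold change was -3.55 ± 1.56 (adjusted p = 0.496), and 1.14% of tested genes had a lower one. Blocked on the replicate number, edgeR gave -4.04 ± 0.37 and an adjusted p of 0.0279, which does not reach the study's threshold of 0.01. In that fit 184 of all genes were under 0.05. The block was chosen from a correlation in these same data, and the labels do not say what the number marks.

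Cfd encodes complement factor D (adipsin), the serine protease that cuts factor B in the alternative complement pathway and is made mainly by fat. It had the highest mean TPM of the 10 genes in both diets, and stood at 1054, 458.9 and 351.1 TPM in HFD-fed and 9101, 10850 and 1674 TPM in LFD-fed mice. Every HFD-fed mouse was below every LFD-fed mouse in TPM, as for 11.6% of all tested genes. On the scale of log2 CPM (counts scaled to library size and normalized for composition by TMM) HFD replicate 1, at 10.12, was above LFD replicate 3, at 9.70. In edgeR its log2 fold change was -3.26 ± 1.09 (adjusted p = 0.372), and DESeq2 gave an adjusted p of 0.0108.

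Agt encodes angiotensinogen, the precursor from which renin and Ace make angiotensin II, the peptide that raises blood pressure. It stood at 2.44, 2.03 and 1.49 TPM in HFD-fed and at 30.4, 37.1 and 6.96 TPM in LFD-fed mice. The HFD-fed mice were close together, within 1.64-fold, and the diets did not overlap on either scale. Agt was the 1 gene of the 10 with no overlap in log2 CPM with HFD-fed mice below, beside 9.23% of all tested genes, and 0 genes of the 10 were above, beside 6.72%. In TPM 3 genes were below (Cfd, Nnmt and Agt) and 0 above, beside 11.6% of all genes below and 1.65% above. Agt had a log2 fold change of -3.47 ± 0.82 (adjusted p = 0.210 in edgeR and 5.57e-04 in DESeq2). Agt belongs to a list of muscle structure development genes that the study drew from these same mice, so its direction is not independent evidence. Without LFD replicate 3 it had an adjusted p of 0.0310 in edgeR, and the number of genes with no overlap in log2 CPM was 6 (Adipoq, Retn, Cfd, Agt, Rbp4 and Nnmt), beside 18.1% of all genes. Without HFD replicate 1 that number was 3 (Retn, Cfd and Agt), beside 14.2% of all genes.

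Rbp4, the carrier of retinol in blood, stood at 40.0, 30.3 and 9.73 TPM in HFD-fed and at 201.1, 137.8 and 23.5 TPM in LFD-fed mice. LFD replicate 3 was again among the HFD-fed mice. The means of 26.7 ± 15.4 and 121 ± 90.0 TPM differed 4.53-fold, and the log2 fold change was -2.07 ± 1.06 (adjusted p = 0.565). It was -0.96 without LFD replicate 1, -2.60 without LFD replicate 3 and -2.93 without HFD replicate 1.

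Nnmt encodes nicotinamide N-methyltransferase, an enzyme of white fat that uses S-adenosylmethionine to methylate nicotinamide. It stood at 64.1, 73.8 and 51.1 TPM in HFD-fed and at 176.1, 185.1 and 90.5 TPM in LFD-fed mice. The diets did not overlap in TPM, with means of 63.0 ± 11.4 and 151 ± 52.2 TPM, and overlapped in log2 CPM. The log2 fold change was -1.07 ± 0.51 (adjusted p = 0.533).

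Sfrp5, a secreted antagonist of Wnt ligands, was barely detected, with 5 to 94 counts per mouse. It stood at 0.450, 1.64 and 0.160 TPM in HFD-fed and at 2.90, 1.34 and 0.460 TPM in LFD-fed mice, so the diets overlapped. The log2 fold change of -1.19 ± 1.07 (adjusted p = 0.796) was 0.16 without LFD replicate 1.

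Apln and Nampt had higher means in HFD-fed mice. Apln encodes apelin, the peptide ligand of the receptor Aplnr on vessels and heart. Its level was 3.65, 7.42 and 17.1 TPM in HFD-fed mice against 1.70, 2.92 and 16.1 TPM in LFD-fed mice. The mice numbered 3 of both diets were the highest, and the diets overlapped. Each HFD-fed mouse was above the LFD-fed mouse of its number, with a log2 fold change of 0.79 ± 0.73 (adjusted p = 0.800). The log2 fold change of Apln depended on the mouse left out: it rose to 1.98 without LFD replicate 3. It fell to 0.21 without HFD replicate 3, 0.42 without LFD replicate 1 and 0.43 without LFD replicate 2. Nampt, the rate-limiting enzyme of NAD salvage whose secreted form is also called visfatin, stood at 37.3, 75.2 and 58.1 TPM in HFD-fed and at 57.8, 51.3 and 29.6 TPM in LFD-fed mice. HFD replicate 1 was below LFD replicates 1 and 2, and the log2 fold change of 0.33 ± 0.48 (adjusted p = 0.893) was -0.02 without LFD replicate 3.

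**Figure D2:**
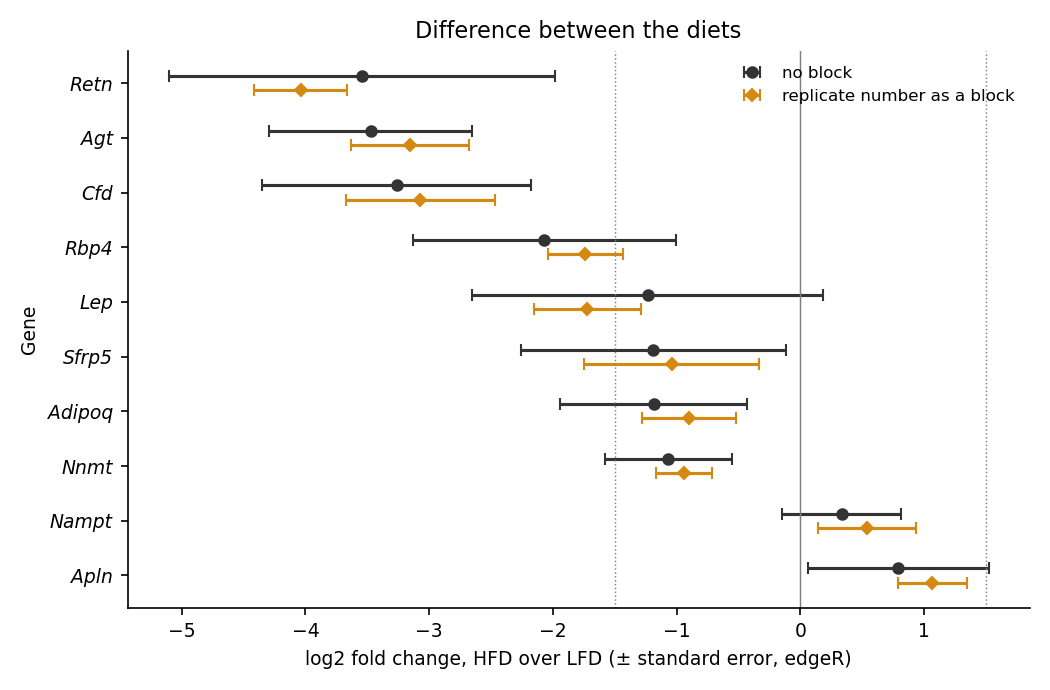
Log2 fold change (HFD over LFD) of each gene on the x axis with its standard error in edgeR, unblocked (black circles) and blocked on the replicate number (orange diamonds), and dotted lines at the study's threshold of 1.5 in either direction. Retn, Agt, Cfd and Rbp4 lie beyond -1.5 in both fits, and the error of Retn is 1.56 without and 0.37 with the block.

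In log2(TPM + 1), exact two-sided permutation tests over the splits of 3 against 3 mice gave p = 0.1 for Cfd, Agt and Nnmt, the smallest p this design allows. Any gene whose diets do not overlap reaches that p, and in TPM these were 11.6% of all tested genes below and 1.65% above. TPM is not normalized for composition, and Cfd and Nnmt overlapped in log2 CPM. The differences (HFD minus LFD) were -3.31, -2.84 and -1.19 on that scale, which understates the change of a low gene such as Agt. The p of the other 7 genes was between 0.2 and 0.5, and after Benjamini-Hochberg adjustment over the 10 genes all were between 0.333 and 0.5.

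The order of the levels was Cfd, Adipoq, Retn, Nnmt, Rbp4, Lep, Nampt, Agt, Apln and Sfrp5 by mean TPM in LFD-fed mice, from 7208 ± 4872 TPM down to 1.57 ± 1.24 TPM. The ranges of all neighbours in that order overlapped, although Cfd was above Adipoq, Adipoq above Retn and Retn above Nnmt inside each of the 3 mice. In HFD-fed mice the order was Cfd, Adipoq, Retn, Nnmt, Nampt, Rbp4, Lep, Apln, Agt and Sfrp5. Ranges of neighbours were apart there for Adipoq against Retn and for Apln against Agt, and overlapped for the others. Cfd was above Adipoq in 1 of 3 HFD-fed mice and in 3 of 3 LFD-fed mice.

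The level of each gene was also set against Adipoq within the same mouse. The log2 ratio of Cfd to Adipoq, each as TPM + 1, was 0.72, -0.59 and -0.15 in HFD-fed mice and 2.32, 2.43 and 1.83 in LFD-fed mice. That of Retn was -2.00, -4.19 and -5.76 in HFD-fed and -0.11, -0.91 and -1.67 in LFD-fed mice, and that of Agt was -7.54, -7.83 and -7.29 against -5.86, -5.73 and -5.89. For each of these 3 genes the diets did not overlap, so that Cfd, Retn and Agt were lower relative to Adipoq in all 3 HFD-fed mice, with differences of -2.20, -3.09 and -1.73. Their exact permutation p was 0.1, the smallest possible, and 0.3 after adjustment over the 9 ratios. How many of all genes would separate the diets in this ratio was not computed, so these 3 have no background share beside them. Agt, at 1.49 to 2.44 TPM in HFD-fed mice, depends on the pseudocount: its difference was -2.18 with TPM + 0.1 and -2.24 with none. With TPM + 1 the ratios of Agt had an SD of 0.27 (HFD) and 0.09 (LFD), the latter the smallest of the 9 ratios in LFD-fed mice. LFD replicate 3, low in both genes, was level with the other LFD-fed mice in this ratio of TPM + 1. The SDs were not recomputed with another pseudocount.

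The ratio of Nnmt to Adipoq differed by -0.08 between diets (exact permutation p = 1.0). It reversed to 0.27 without LFD replicate 3. The ratio of Lep differed by -0.72 (p = 0.6, exact permutation test) and that of Rbp4 by -0.77 (exact p = 0.2). The ratio of Sfrp5, a gene at 0.160 to 2.90 TPM, rests on the pseudocount: the difference was 0.58 with TPM + 1 (exact p = 0.3), 0.02 with TPM + 0.1 (exact p = 1.0) and -0.20 with none, so no direction is given. The ratios of Nampt and Apln were higher in HFD-fed mice in 3 of 3 same-numbered pairs, by 1.40 (exact p = 0.2) and 1.77 (exact p = 0.3), with overlap between the diets. For Apln the difference was 3.24 without LFD replicate 3 and 0.93 without LFD replicate 1.

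**Figure D3:**
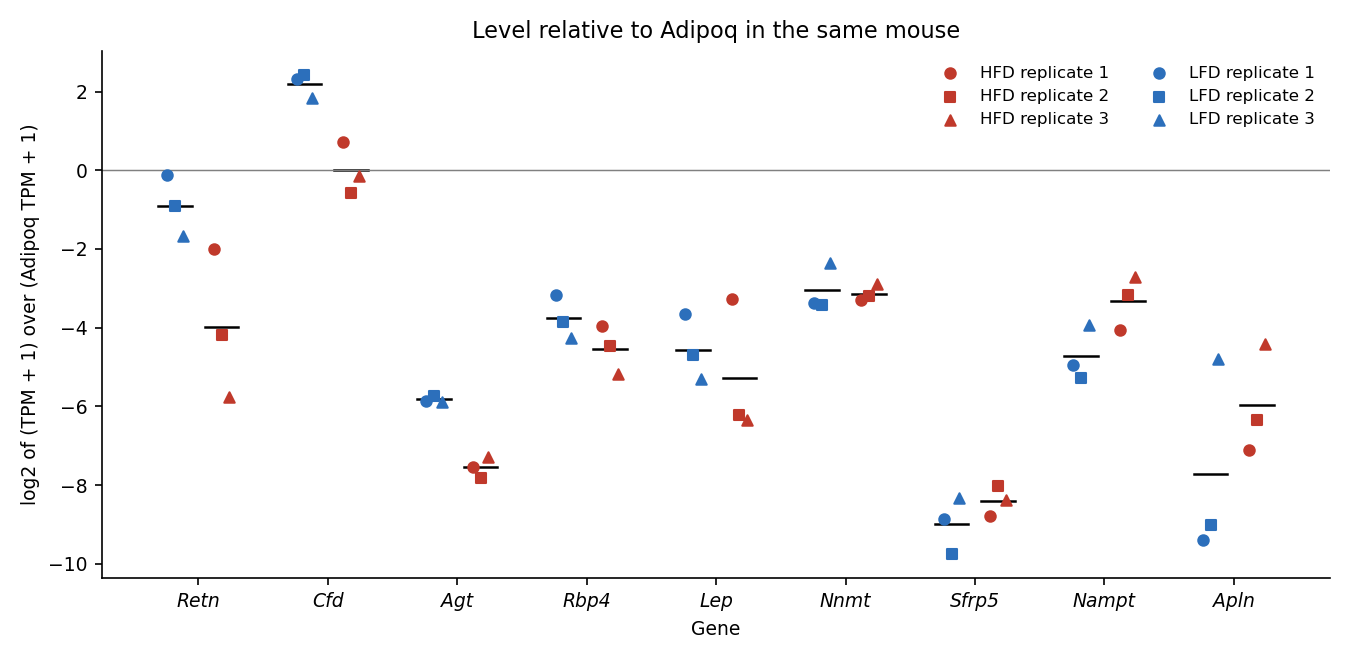
Log2 ratio of each gene to Adipoq in the same mouse (y axis, both as TPM + 1), with HFD-fed mice in red, LFD-fed mice in blue and the mean of each diet as a black line. The diets do not overlap for Retn, Cfd and Agt, and the ratios of Nnmt differ by -0.08 between the diets.

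Across the 6 mice most of the genes went up and down together in log2 CPM, as a description over few mice that share their diet groups. Pearson's r was 0.99 for Rbp4 with Nnmt, 0.99 for Cfd with Agt and 0.98 for Adipoq with Rbp4. Apln went the other way, with r between -0.97 (Adipoq) and -0.39 (Nampt), and Nampt had r between 0.08 (Agt) and 0.59 (Sfrp5) with the other 8 genes. The tested genes most like Lep were Pcbd1 (r = 0.99), 0610009L18Rik, Lpgat1, Pter and Tshr. Those most like Agt were Brpf3 (r = 1.00), Clmn, Zbtb16, Mettl7b and Gprasp1.

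Of 32 genes for the receptors, processing enzymes and partners of these adipokines, 25 were tested, 15 were lower and 10 higher in HFD-fed mice, and 0 were called in edgeR. At an unadjusted p under 0.05, 4 were lower (Ace, Lepr and Wnt5a among them) and 0 higher, beside 6.62% and 3.86% of all tested genes. DESeq2 called 3, with Ace and Lepr among them, beside 1.5% lower and 0.523% higher of the genes with an adjusted p. The median log2 fold change of the list was -0.40. Every HFD-fed mouse was below every LFD-fed mouse in log2 CPM for 4 of the 25 and above for 0, beside 9.23% and 6.72% of all tested genes. Ace, which makes angiotensin II, was 1 of the 4. It stood at 12.9, 20.7 and 14.2 TPM in HFD-fed and at 39.6, 117.2 and 48.4 TPM in LFD-fed mice, with a log2 fold change of -1.74 ± 0.38 (adjusted p = 0.190). Renin itself (Ren1) was listed at 0 in all 6 mice. The angiotensin receptor Agtr1a was low in both diets, at 4.50 ± 2.62 and 8.14 ± 4.68 TPM, with a log2 fold change of -0.65 (adjusted p = 0.614).

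Lepr, the leptin receptor, stood at 0.260, 0.630 and 0.520 TPM in HFD-fed and at 1.28, 3.58 and 1.96 TPM in LFD-fed mice. The diets did not overlap, as for 9.23% of all tested genes below in log2 CPM, and the log2 fold change was -1.87 ± 0.47 (adjusted p = 0.236). The adiponectin receptors differed less, with a log2 fold change of -0.05 ± 0.27 for Adipor1 (adjusted p = 0.977) and -0.68 ± 0.62 for Adipor2 (adjusted p = 0.798). Aplnr had 0.86 ± 0.80 (adjusted p = 0.804), and its level was highest in the mice numbered 3 of both diets, as was that of its ligand Apln.

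Among 36 other adipokines and fat-secreted factors, 33 were tested, 20 were lower and 13 higher, and 0 were called by edgeR or DESeq2. At an unadjusted p under 0.05 in edgeR 7 were lower and 2 higher, beside 6.62% and 3.86% of all tested genes, with a median log2 fold change of -0.19 over the list. Those with the smallest p were Angptl2, an angiopoietin-like protein (-1.10 ± 0.28, adjusted p = 0.241), Sfrp1, a Wnt antagonist like Sfrp5 (-1.61 ± 0.48, adjusted p = 0.318), and C1qtnf1, a relative of adiponectin (-1.47 ± 0.45, adjusted p = 0.331). Every HFD-fed mouse was below every LFD-fed mouse for these 3 genes, as for 9.23% of all tested genes.

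The medians of the white and the brown adipocyte lists had opposite signs, but a negative median was not particular to the white list. The genes that white and brown adipocytes share had one of -0.57. The white list holds 14 genes, and whether each is specific to white adipocytes was not tested. Of these, 12 were tested, 9 were lower and 3 higher in HFD-fed mice, and 0 were called by either tool. The median log2 fold change was -0.47, with 1 gene (Psat1) at an unadjusted p under 0.05. Psat1, an enzyme of serine synthesis, had -1.46 ± 0.36 (adjusted p = 0.228), Car3, a carbonic anhydrase abundant in fat and in slow muscle, -2.56 ± 1.10 (adjusted p = 0.487), and the amino acid transporter Slc7a10 -2.22 ± 1.11 (adjusted p = 0.554). Of 15 brown adipocyte genes, 2 were lower and 13 higher, with a median log2 fold change of 1.96. None was called by either tool, and at an unadjusted p under 0.05 in edgeR 1 was lower (Lhx8, -1.43, adjusted p = 0.241) and 4 were higher. Beside the counts of both lists at that p, 6.62% of all tested genes were lower and 3.86% higher. The 4 higher brown adipocyte genes included the regulators Ppara (log2 fold change 2.56 ± 0.82, adjusted p = 0.351) and Prdm16 (8.30 ± 3.68 against 3.46 ± 0.297 TPM, adjusted p = 0.351).

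The 15 genes that white and brown adipocytes share had a median log2 fold change of -0.57, with 10 lower and 5 higher in HFD-fed mice. Either tool called 0, and 0 were at an unadjusted p under 0.05 in edgeR, beside 6.62% lower and 3.86% higher over all tested genes. Of the 15 genes, those with the smallest p were the transcription factors Cebpb (0.64 ± 0.33, adjusted p = 0.568) and Cebpa (-1.07 ± 0.65, adjusted p = 0.646) and the lipid droplet gene Cidec (-1.44 ± 0.81, adjusted p = 0.617). Their summed level was 7619 to 12787 TPM in HFD-fed and 5171 to 21845 TPM in LFD-fed mice, and LFD replicate 3 was the lowest of all 6 mice, as a mean of log2 CPM (7.08) too.

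Markers of other cell types were followed in the same mice, and edgeR called 0 of them, while DESeq2 called 14 of the skeletal muscle and 6 of the T and NK cell markers. All 15 skeletal muscle markers were lower in HFD-fed mice, 14 of them with no overlap and at an unadjusted p under 0.05 in edgeR, with a median log2 fold change of -6.21 and none at 0 in any mouse. T and NK cell markers were higher (11 of 11 tested, median log2 fold change 2.28), with a summed level of 15.4 to 48.2 TPM against 1.99 to 14.7 TPM. Of 12 macrophage markers 9 were higher, with sums of 2146 to 4827 against 619.5 to 4876 TPM. Of 8 endothelial markers 6 were higher, with sums of 114.1 to 470.8 against 146.9 to 287.6 TPM. Of 10 fibroblast and progenitor markers 8 were lower, with sums of 3511 to 5281 against 1804 to 27220 TPM. The highest fibroblast and progenitor sum was that of LFD replicate 3, with Col3a1 at 18377 and Col1a1 at 5842 TPM. Its macrophage sum was also the highest of all mice. Among LFD-fed mice it had the lowest level of every adipokine gene but Apln, which was highest there. The brown adipocyte list summed to 2077 to 7977 TPM in HFD-fed and 378.5 to 2229 TPM in LFD-fed mice. No marker of these lists was at 0 in any mouse, and their part in the differences of the adipokines was not tested.

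**Figure D4:**
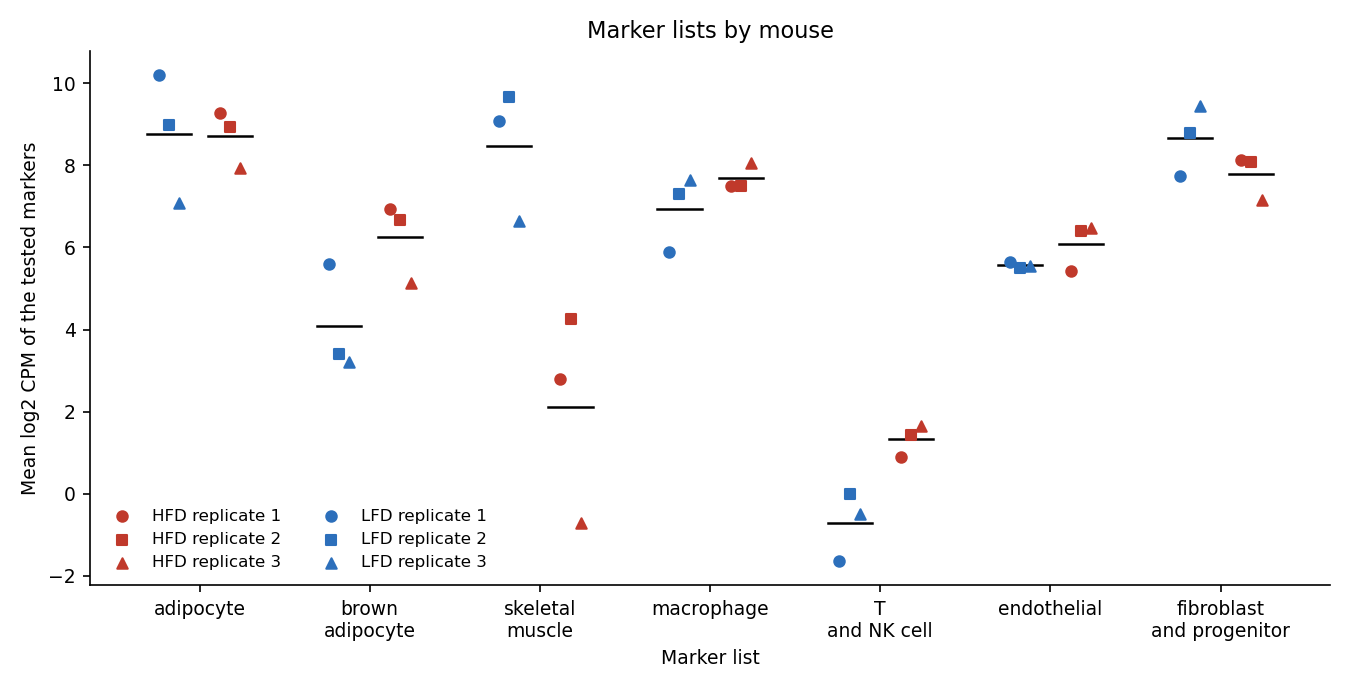
Mean log2 CPM of the tested genes of each marker list by mouse, with HFD-fed mice in red, LFD-fed mice in blue and the mean of each diet as a black line. The skeletal muscle lists of the diets do not overlap (2.80, 4.25 and -0.71 against 9.08, 9.68 and 6.65), the T and NK cell lists do not overlap in the other direction, and the adipocyte lists overlap.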

How the data were processed

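RNA of BAT from 3 HFD-fed and 3 LFD-fed mice was depleted of ribosomal RNA and read from 1 end over 75 bases. The authors removed adapters with Trimmomatic 0.36 and ran RSEM 1.3.0 on GRCm38 with Ensembl 84, per the submitters' processing notes and the paper. For each mouse the authors deposited expected counts, raw estimates in which reads that match several genes are divided, and TPM, which divides them by effective length. The authors also deposited a score from RSEM, the posterior SD of the count, at most 1.01 for Retn and 0 for the other 9 genes.

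Groups and replicate numbers came from the labels. Expected counts were rounded (17156991 to 21603487 per mouse; a low gene such as Sfrp5 carries more counting error) and tested with edgeR 4.0.16 in R 4.3.3: quasi-likelihood test, TMM, edgeR's filter, Benjamini-Hochberg over 17668 genes, tested on simulated data first. Log2 CPM used a prior count of 2. DESeq2 1.42.0 was an alternative, at default settings with fold changes not shrunken, while the submitters' notes name version 1.10.1. Standard errors come from the coefficient and its F statistic. TPM values and ratios to Adipoq were compared with a pseudocount of 1 by exact permutation tests (scipy 1.17.1). Mice with the same replicate number deviated together from their diet means across genes (r = 0.229 to 0.522, mean 0.416), so the number was also fitted as a block. That correlation comes from the same values as the fit, so the smaller errors with the block are not independent evidence for a pairing. The mean r of other pairs, -0.204, follows largely from subtracting the diet means and adds no evidence for the block. The labels do not say what the number marks. No 2 mice of a diet were a repeated library (chi-square per degree of freedom 71.7 to 557.7).

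The 10 genes and the lists were chosen with earlier results of these data known. Named besides them were 6 receptors and enzymes whatever their values, the 3 genes with the smallest p of each related list (1 such gene is not reported here), and the 5 genes most correlated with Lep and with Agt. Other alternatives were RLE or plain library sizes, other filters on low counts, robust fitting, mitochondrial genes left out, another pseudocount or none, Plin1 in place of Adipoq and each mouse left out. Wnt5a was named after its value was seen. Of the genes listed, Rbpr2 had no row in the files. Promoter windows came from RefSeq, with 10 windows for 9 of the genes.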

Additional observations from a re-analysis of the deposited data

How the results depend on the processing

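With 3 mice per diet and a biological coefficient of variation of 0.450, edgeR's smallest adjusted p over all genes was 0.170. DESeq2 called 1 of the 10 adipokine genes, 411 of all genes and 3 genes of the related lists, where edgeR called 0, 0 and 0, with 1851 genes at an unadjusted p under 0.05. In edgeR the counts called were 0 in all other settings and with each mouse left out, as no gene at all was called. The smallest adjusted p over all genes was 0.0102 with the block and 0.0204 without LFD replicate 3, and larger in the other edgeR fits. The counts of 0 among the 10 genes therefore say nothing particular about them. Blocked on the replicate number, the log2 fold change was -1.72 for Lep, -0.90 for Adipoq, -4.04 for Retn, -3.07 for Cfd and -3.16 for Agt. In that fit 0 of the 10 genes were called, but no gene reached the study's threshold of 0.01, so the unchanged call does not test the block. At an adjusted p under 0.05 the block gave 184 genes and leaving out LFD replicate 3 gave 222, against 0. The cause was not tested.

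The number of adipokine genes with no overlap, 1 in log2 CPM, was 2 with plain library sizes, 3 in TPM and 1 to 6 with a mouse left out, the 6 without LFD replicate 3. The share of all genes with no overlap was 9.23% in log2 CPM, 7.57% with plain library sizes, 11.6% in TPM and 11.5% to 18.1% with a mouse left out. This count was added after seeing the data. In 3 cases log2 fold changes reversed: Lep to 0.0472 and Sfrp5 to 0.16 without LFD replicate 1, and Nampt to -0.0227 without LFD replicate 3. Over all left-out mice Lep ranged from -3.85 to 0.0472, Sfrp5 from -2.14 to 0.16 and Nampt from -0.0227 to 0.94. Retn (-5.78 to -2.33), Agt (-3.98 to -2.90) and Cfd (-4.33 to -2.65) kept their direction. The ratio of Nnmt to Adipoq reversed to 0.000655 without HFD replicate 1 and 0.27 without LFD replicate 3, within a range of -0.27 to 0.27 over the left-out mice, and was -0.62 with Plin1 in place of Adipoq. That of Sfrp5 reversed to -0.20 with no pseudocount, a setting added after seeing the data, and was 0.05 with Plin1. The other 135 fold changes recomputed kept direction and call, as did the direction of all 70 differences in log2 TPM (pseudocount of 0.1, or a mouse left out) and 78 ratios (Plin1 as reference, pseudocount of 0.1 or none, or a mouse left out), and Agt was called in DESeq2 alone. A filter of at least 10 counts in every mouse left 9 of the 10 genes, without Sfrp5.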
